A study of Homo sapiens with 60 samples.

Results

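Ribosome biogenesis genes and MYC were followed in HepG2, a human liver cancer line, by sequencing RNA after 24 h with herbal extracts. The 38 genes were taken from a list of symbols that names MYC, RNA polymerase I genes and nucleolar genes of ribosome assembly. All 38 symbols were found among the 60675 gene IDs of the count table, and all 38 passed the filter on low counts. The 60 libraries fall into 25 groups. Polygalae Radix was given at 10, 50 and 250 ug/mL and Aucklandiae Radix at 11.2, 56 and 280 ug/mL, with 2 libraries per dose. Guibi-tang, Saengmaek-san, Saposhnikoviae Radix and Menthae Herba were given at 20, 100 and 500 ug/mL with 3 libraries per dose. Soyo-san had 2 libraries and Okbyeongpung-san 1 library at each of those 3 doses. Each extract was made with 70% ethanol, and the names ending in -san or -tang are traditional formulas of several herbs. Vehicle (DMSO) had 3 libraries, and the labels give 0.1% DMSO where the design text gives 2% DMSO. Doses are called low, medium and high below. The set named below is the first part of the sample code, D1 for vehicle and 11 to 14 for the extracts. What that part stands for is not stated, and the titles of all libraries, vehicle included, carry BatchD. The high doses of Polygalae Radix and Aucklandiae Radix lie under 500 ug/mL because they were set at the concentration giving 20% inhibition.

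A ribosome is built in the nucleolus. RNA polymerase I copies the ribosomal RNA genes into a long precursor, which small nucleolar ribonucleoproteins of the box C/D and box H/ACA kinds modify. The small subunit processome folds and cuts the leading part of the precursor, a separate set of factors assembles the large subunit, and late factors finish the small subunit on its way to the cytoplasm. MYC is a transcription factor that binds the E-box CACGTG with its partner MAX, and many nucleolar genes are among its known targets. MYC and ribosome production are known to be raised in many liver cancers.

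The E-box was looked for in RefSeq promoters (GRCh38.p14, 250 bases before to 50 after the start). CACGTG reads the same on both strands, so 1 search covers both. Of the 38 genes 32 had a promoter in the table. CACGTG was in a promoter of 14 of these 32 genes (43.8%). The share was 12.3% of the 11397 tested genes with a promoter and 8.77% of all 27305 genes with a promoter. NOP58, RRP12, BOP1, NOLC1, RRP1B and MYC had no entry. A match is a description of letters, not a binding site. The 30-base windows below are 5′ to 3′ on the gene's strand with the E-box in capitals. BYSL, WDR43 and GNL3 are shown because they were higher at the high dose of Polygalae Radix. NOP14 and UTP20 are shown because they were lower at the high doses of both Polygalae Radix and Aucklandiae Radix, and FBL and DDX21 because they were higher at the high dose of Menthae Herba.
BYSL: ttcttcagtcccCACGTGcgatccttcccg
WDR43: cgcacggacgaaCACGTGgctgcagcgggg
GNL3: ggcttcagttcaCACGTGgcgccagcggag
NOP14: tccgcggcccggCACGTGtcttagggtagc
UTP20: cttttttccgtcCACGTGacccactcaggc
FBL: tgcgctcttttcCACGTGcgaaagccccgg
DDX21: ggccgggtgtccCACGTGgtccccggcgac
The BYSL window is chr6:41921515-41921544 (plus strand), the WDR43 window chr2:28894658-28894687 (plus strand) and the GNL3 window chr3:52686026-52686055 (plus strand). The NOP14 window is chr4:2963374-2963403 (minus strand) and the UTP20 window chr12:101280083-101280112 (plus strand). The FBL window is chr19:39846356-39846385 (minus strand) and the DDX21 window chr10:68956604-68956633 (plus strand).

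Total counts per library were 17.5 M to 38.9 M (M, 1000000 counts), with a median of 23.7 M. Levels are CPM, the counts of a gene per 1000000 counts of its library after scaling. Tests are edgeR's quasi-likelihood test over 16978 genes, and a gene is called at a Benjamini-Hochberg adjusted p under 0.05. Whether libraries of a group came from separate cultures is not stated, and the spread behind the p-values may be technical. Each gene's spread was estimated over all 57 fitted libraries, so the p-values do not rest on the groups compared alone. Replicates of some groups, such as the high dose of Polygalae Radix, lay further apart than those of others, such as the low dose of Menthae Herba. The summed level of 7 hepatocyte markers was 17431 to 50191 CPM, all 7 above 0 in each of the 60 libraries. Over the libraries 7 blood cell markers summed to 647 to 1687 CPM, most of it LYZ with a median of 1158 CPM and next CD68 with a median of 33.0 CPM, while PTPRC, CD3E and HBB were at 0 in 57, 59 and 60 libraries. The 7 stroma markers summed to 14.2 to 69.7 CPM, most of it ACTA2 with a median of 49.0 CPM and PDGFRB with a median of 9.05 CPM, while DCN was at 0 in all 60. The 5 endothelial markers summed to 2.33 to 6.81 CPM. In bulk RNA fewer cells of a type and less RNA per cell cannot be told apart, and CPM shows only each gene's share of the RNA.

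Per kilobase of the longest transcript, the mean level over all 60 libraries was highest for NPM1 at 757 CPM per kb and NCL at 464 CPM per kb, which encode the abundant nucleolar proteins nucleophosmin and nucleolin. NOP56 at 168 CPM per kb, FBL at 94.8 CPM per kb and NOP58 at 81.4 CPM per kb, the core of the box C/D particles, came next. MYC followed at 77.7 CPM per kb. LAS1L at 8.27 CPM per kb and UTP15 at 7.46 CPM per kb were the lowest. NPM1 has processed pseudogenes and RRN3 has near-identical copies, so reads can be split among copies and the levels of both genes are uncertain.

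MYC rose at the high dose of 3 extracts (Polygalae Radix, Menthae Herba and Guibi-tang) relative to their low doses, and its level at every low dose lay below vehicle. MYC lies on chromosome 8 at 127735434 to 127741434, plus strand (GENCODE 29, GRCh38). It had 494 and 415 CPM at the high dose of Polygalae Radix, against 172 and 166 CPM at its low dose. Both high-dose libraries lay far above every other library of the series. The edgeR log2 fold change was 1.44 (SE 0.057, adjusted p = 5.39e-26), a 2.71-fold rise. Here and below the SE is the size of the log2 fold change over the square root of the F of the edgeR test. It rests on the spread over all fitted libraries. The log2 level of MYC itself had an SD of 0.18 at the high dose and 0.03 at the low dose (n = 2 each). The medium dose, with 181 and 173 CPM, lay close to the low dose.

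At the high dose of Menthae Herba MYC had 231, 205 and 195 CPM, against 157, 157 and 154 CPM at the low dose (edgeR log2 fold change 0.44, SE 0.047, adjusted p = 3.18e-10). At the high dose of Guibi-tang it had 208, 193 and 209 CPM, against 164, 155 and 160 CPM at the low dose (log2 fold change 0.35, edgeR adjusted p = 4.78e-08). The groups did not overlap in either extract. Guibi-tang gave the 1 medium dose at which MYC was called against the low dose, with 189, 179 and 193 CPM (log2 fold change 0.23 over the low dose, edgeR adjusted p = 0.00157).

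MYC did not pass the test in the other 4 fitted extracts. At the high dose of Aucklandiae Radix it had 183 and 197 CPM, against 177 and 178 CPM at the low dose (log2 fold change 0.11, edgeR adjusted p = 0.085). This value passed under RLE scaling (log2 fold change 0.14), a filter at a mean of 1 CPM (0.15), DESeq2 (0.13) and removal of the GC and length trend (0.18). Saposhnikoviae Radix gave 177, 171 and 177 CPM at the high dose and 155, 155 and 157 CPM at the low dose (log2 fold change 0.17, edgeR adjusted p = 0.0707). These groups did not overlap but missed the threshold. DESeq2, removal of the GC and length trend and the fit of only the groups compared each called it. Saengmaek-san gave 160, 168 and 173 CPM at the high dose, against 147, 155 and 157 CPM at the low dose (log2 fold change 0.13, edgeR adjusted p = 0.365). Soyo-san gave 178 and 186 CPM at the high dose, against 166 and 166 CPM at the low dose (log2 fold change 0.13, edgeR adjusted p = 0.271). In Okbyeongpung-san, which has 1 library per dose and no test, MYC had 167, 166 and 192 CPM at the low, medium and high doses.

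Against vehicle, with 205, 215 and 212 CPM of MYC, the order of the high doses was as follows. Polygalae Radix lay above vehicle by 1.11 on the log2 scale (edgeR adjusted p = 6.24e-24). Menthae Herba and Guibi-tang did not differ from vehicle beyond the spread (log2 fold changes -0.00 and -0.06). Aucklandiae Radix (-0.15), Soyo-san (-0.22), Saposhnikoviae Radix (-0.28) and Saengmaek-san (-0.34) were called lower by edgeR. The call for Aucklandiae Radix was lost without its high-dose replicate 2 (log2 fold change -0.09, edgeR adjusted p = 0.205), under the filter at a mean of 1 CPM (-0.10) and after removal of the GC and length trend (-0.01). Vehicle has a set label of its own, and in comparisons with it the treatment cannot be told apart from the set.

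**Figure D1:**
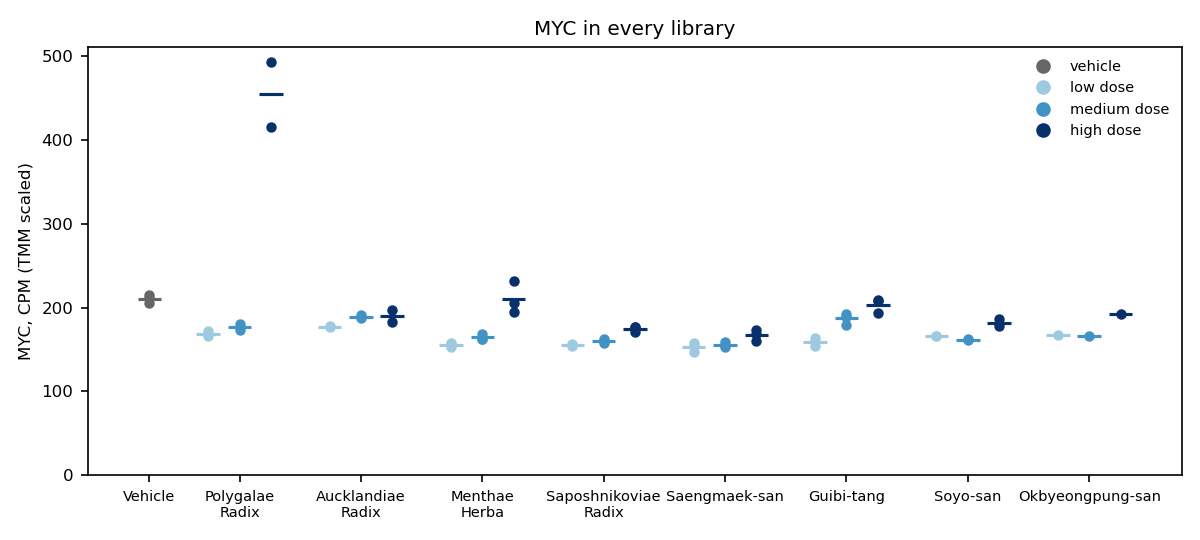
MYC in CPM (vertical axis) in each of the 60 libraries, by extract, with vehicle in grey and darker blue for a higher dose. Points are libraries and bars are group means. The 2 libraries at 250 ug/mL of Polygalae Radix, at 494 and 415 CPM, stand above all others, and the low-dose libraries lie below the 3 vehicle libraries at 205 to 215 CPM.

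Of the 38 genes 21 were called higher with 1 extract and lower with another, and the share of all genes with such opposite calls was not computed. High against low dose, 20 rose and 13 fell with Polygalae Radix. Of all tested genes 31.9% rose, 32.4% fell and 64.3% were called in either direction there. With Aucklandiae Radix 3 rose and 25 fell, beside 34.6% of all genes that rose, 35% that fell and 69.6% called. With Menthae Herba 21 rose and 0 fell (23.6% of all genes), and with Guibi-tang 11 rose and 4 fell (34.3% of all genes). Saposhnikoviae Radix raised 4 (0.836% of all genes), Soyo-san 1 (3.95% of all genes) and Saengmaek-san 0 (0.43% of all genes). Of the other 17 genes 11 were called only higher and 6 only lower, again without a share of all genes, and each was called in at least 1 extract.

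**Figure D2:**
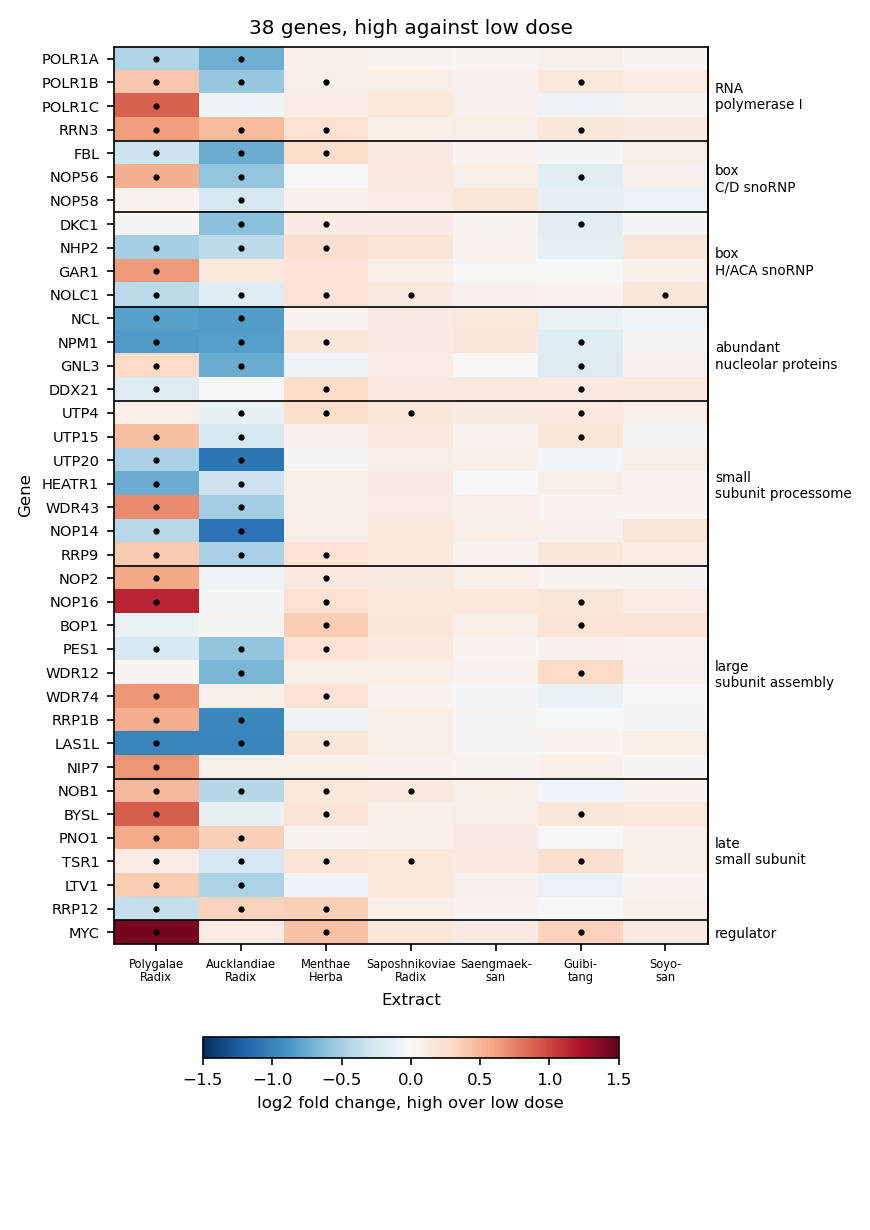
Log2 fold change of the high over the low dose for the 38 genes (rows, by role) in the 7 extracts with replicates (columns), red for higher and blue for lower. Dots mark genes called by edgeR. Polygalae Radix holds both colours with 20 genes higher and 13 lower, Aucklandiae Radix is mostly blue with 25 lower, and Menthae Herba has 21 dots, all on the higher side.

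With the high dose of Polygalae Radix the share called among the 38 genes (33 of 38) stood beside a background of 64.3%, and the median log2 fold change of the 38 was 0.20 against 0.0 for all genes. Every nucleolar role held genes that rose and genes that fell, and roles were not tested against each other. Of the 4 RNA polymerase I genes 3 rose and POLR1A fell. Of 9 large subunit genes 5 rose and 2 fell, and of 6 late small subunit genes 5 rose and 1 fell. Of the 4 abundant nucleolar proteins 1 rose and 3 fell, of 7 small subunit processome genes 3 rose and 3 fell, of 4 box H/ACA genes 1 rose and 2 fell, and of 3 box C/D genes 1 rose and 1 fell.

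The largest rise after MYC was that of NOP16, a large subunit assembly factor. NOP16 had 74.7 and 67.1 CPM at the high dose of Polygalae Radix, against 32.0 and 32.3 CPM at the low dose (log2 fold change 1.15, SE 0.076, edgeR adjusted p = 7.28e-18). BYSL, which acts in late small subunit maturation, had 85.2 and 74.7 CPM at the high dose, against 41.9 and 43.4 CPM at the low dose (log2 fold change 0.91, edgeR adjusted p = 3.28e-14). In both genes the high-dose libraries lay well above the low-dose libraries. POLR1C, a subunit shared by RNA polymerases I and III, had 56.9 and 59.8 CPM at the high dose, against 32.2 and 31.6 CPM at the low dose (log2 fold change 0.88, edgeR adjusted p = 8.66e-16). WDR43, a processome subunit whose promoter window is printed above, had 292 and 325 CPM at the high dose, against 191 and 187 CPM at the low dose (log2 fold change 0.71, edgeR adjusted p = 8.2e-17). The other genes that rose did so by 0.11 (TSR1, a late GTPase-like factor) to 0.66 (NIP7, a pre-rRNA processing factor) on the log2 scale. The call for TSR1 was lost without high-dose replicate 3 (log2 fold change 0.06, edgeR adjusted p = 0.38) or low-dose replicate 2 (0.06, edgeR adjusted p = 0.314).

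LAS1L, part of the complex that cuts the spacer between the large subunit rRNAs, fell the most in Polygalae Radix. It had 23.0 and 19.7 CPM at the high dose, against 40.5 and 44.6 CPM at the low dose (log2 fold change -0.99, SE 0.078, edgeR adjusted p = 1.92e-15). NPM1 had 698 and 799 CPM at the high dose, against 1352 and 1348 CPM at the low dose (log2 fold change -0.84). NCL had 983 and 1034 CPM at the high dose, against 1800 and 1770 CPM at the low dose (log2 fold change -0.82, edgeR adjusted p = 6.85e-18). In all 3 genes both high-dose libraries lay far below both low-dose libraries. HEATR1, a large processome scaffold, fell by 0.75, NHP2 of the box H/ACA particle by 0.50 and UTP20 by 0.48 on the log2 scale. POLR1A, the largest subunit of RNA polymerase I, had 156 and 151 CPM at the high dose, against 212 and 209 CPM at the low dose (log2 fold change -0.45). DDX21, an RNA helicase, fell by 0.21, a call lost without high-dose replicate 2 (log2 fold change -0.14, edgeR adjusted p = 0.0921) and in the fit of only the groups compared.

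Because NCL and NPM1 are so abundant, sums and medians over the nucleolar genes went opposite ways in Polygalae Radix. The 37 genes other than MYC summed to 6308 ± 133 CPM at the high dose and 7183 ± 27.6 CPM at the low dose (SD, n = 2 each). Without NCL and NPM1 the other 35 summed to 4550 ± 24.9 CPM at the high dose and 4048 ± 3.5 CPM at the low dose. NCL and NPM1 together held 1757 ± 108 CPM at the high dose and 3135 ± 24.2 CPM at the low dose.

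At the high dose of Aucklandiae Radix nucleolar genes fell in most roles. The median log2 fold change of the 38 was -0.35, against -0.00 for all genes, and 25 fell (35% of all genes were called lower). All 7 processome genes and all 3 box C/D genes fell, as did 3 of 4 box H/ACA genes, 3 of 4 abundant nucleolar proteins and 4 of 9 large subunit genes. Of 6 late small subunit genes 2 rose and 3 fell, and of 4 RNA polymerase I genes 1 rose and 2 fell.

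NOP14 and UTP20, both processome subunits with an E-box window printed above, fell the most in Aucklandiae Radix. NOP14 had 48.5 and 54.0 CPM at the high dose, against 111 and 110 CPM at the low dose (log2 fold change -1.10, SE 0.057, edgeR adjusted p = 7.04e-22). UTP20 had 57.6 and 68.9 CPM at the high dose, against 137 and 132 CPM at the low dose (log2 fold change -1.08). Both groups were wide apart. LAS1L had 21.9 and 22.5 CPM at the high dose, against 44.6 and 43.5 CPM at the low dose (log2 fold change -0.98). RRP1B, a nucleolar protein of large subunit assembly, had 60.4 and 68.1 CPM at the high dose, against 127 and 126 CPM at the low dose (log2 fold change -0.97, edgeR adjusted p = 8.26e-21). NCL had 999 and 1068 CPM at the high dose, against 1871 and 1848 CPM at the low dose (log2 fold change -0.84). These fell to about the levels NCL had at the high dose of Polygalae Radix. POLR1A had 120 and 129 CPM at the high dose, against 209 and 206 CPM at the low dose (log2 fold change -0.73), and GNL3, which encodes nucleostemin, fell by 0.74.

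The 3 genes that rose with Aucklandiae Radix were RRN3, the factor that brings RNA polymerase I to its promoter (log2 fold change 0.48), PNO1, a late small subunit factor (0.35), and RRP12, an export and maturation factor (0.34), with the largest edgeR adjusted p of the 3 at 9.73e-05. UTP4 fell by 0.11, a call lost without high-dose replicate 3 (log2 fold change -0.10, edgeR adjusted p = 0.128) or low-dose replicate 3 (-0.13, edgeR adjusted p = 0.0648) and under RLE scaling, the filter at a mean of 1 CPM, DESeq2 and the replicate block within the set. The 37 genes other than MYC summed to 4976 ± 141 CPM at the high dose and 7313 ± 13.1 CPM at the low dose (SD, n = 2 each). The 35 without NCL and NPM1 summed to 3168 ± 93.1 CPM at the high dose and 4078 ± 5.44 CPM at the low dose.

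**Figure D3:**
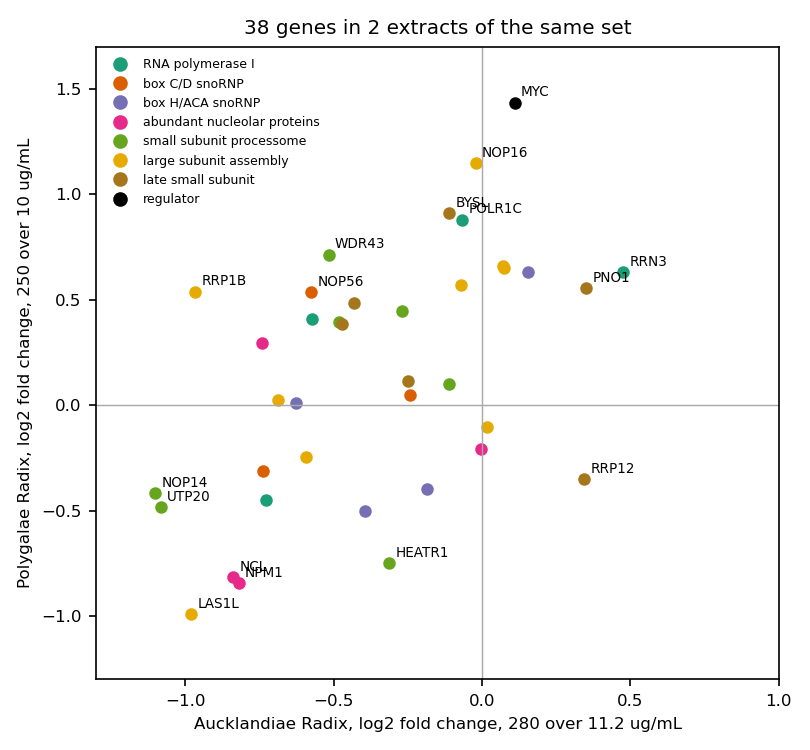
Log2 fold change of the high over the low dose for each of the 38 genes in Aucklandiae Radix (horizontal axis) and Polygalae Radix (vertical axis), coloured by role. MYC sits at 0.11 for Aucklandiae Radix and 1.44 for Polygalae Radix. RRP1B lies in the upper left, at -0.97 for Aucklandiae Radix and 0.54 for Polygalae Radix, and LAS1L in the lower left, at -0.98 for Aucklandiae Radix and -0.99 for Polygalae Radix.

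Polygalae Radix and Aucklandiae Radix carry the same set label, at high doses that differ (250 and 280 ug/mL), and their dose responses were set against each other. Of the 38 genes 10 rose with Polygalae Radix and fell with Aucklandiae Radix (7.89% of all genes did), 11 fell in both (18.2% of all genes) and RRN3 and PNO1 rose in both (16.7% of all genes). A further 8, MYC among them, rose with Polygalae Radix and were not called with Aucklandiae Radix (7.32% of all genes). RRP12 went the other way, lower with Polygalae Radix and higher with Aucklandiae Radix. BOP1, of the complex with PES1 and WDR12, was called in neither.

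The difference between the dose responses, Aucklandiae Radix minus Polygalae Radix, was negative and called for 29 genes and positive and called for 4, where 60.1% of all genes were called in either direction. Its median was -0.58 over the 38 genes and 0.04 over all genes. It was largest for RRP1B, at -1.51 (edgeR adjusted p = 2.28e-22). RRP1B had 188 and 174 CPM at the high dose of Polygalae Radix, against 123 and 128 CPM at its low dose. MYC differed by -1.33 (edgeR adjusted p = 5.09e-19), WDR43 by -1.23, NOP16 by -1.17, NOP56 by -1.11, GNL3 by -1.04 and BYSL by -1.02. NOP56, a box C/D scaffold, had 336 and 336 CPM at the high dose of Aucklandiae Radix and 748 and 731 CPM at the high dose of Polygalae Radix, with low-dose levels of 495 to 516 CPM in both extracts.

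The 5 genes whose difference was not called were LAS1L (0.01), NCL (-0.02), NPM1 (0.02), NHP2 (0.11) and BOP1 (0.12), of which the first 4 fell in both extracts. The difference for NCL had an SE of 0.076 (edgeR adjusted p = 0.826), and a p that misses the threshold does not show that the extracts act alike. HEATR1 (0.44) and RRP12 (0.70) were among the 4 positive differences.

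**Figure D4:**
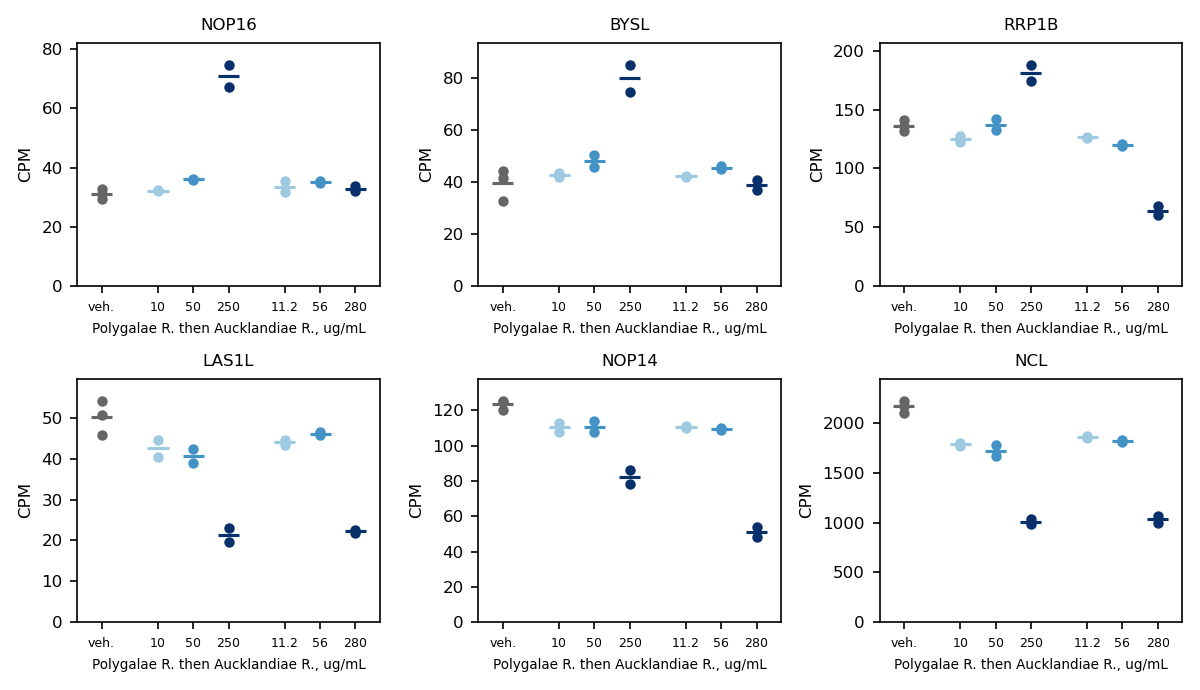
CPM (vertical axes, from 0) of NOP16, BYSL, RRP1B, LAS1L, NOP14 and NCL in vehicle and at the doses of Polygalae Radix and then Aucklandiae Radix, in ug/mL. Points are libraries and bars are group means. NOP16 and BYSL are high at 250 ug/mL of Polygalae Radix alone, RRP1B is high there and low at 280 ug/mL of Aucklandiae Radix, and LAS1L and NCL are low at the high dose of both.

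Other measures moved with these 2 high doses. The mitochondrially encoded share of counts was 17.5% to 17.7% at the high dose of Polygalae Radix, against 12.0% to 12.9% at its low dose, and 8.02% to 8.17% at the high dose of Aucklandiae Radix, against 12.4% to 14.0% at its low dose. The summed hepatocyte markers were 17431 to 21544 CPM at the high dose of Polygalae Radix, against 44615 to 46296 CPM at the low dose. They were 21157 to 22020 CPM at the high dose of Aucklandiae Radix, against 44320 to 45065 CPM at the low dose. The blood cell markers, mostly LYZ, summed to 647 to 719 CPM at the high dose of Polygalae Radix, against 1276 to 1324 CPM at its low dose, and to 758 to 777 CPM at the high dose of Aucklandiae Radix, against 1186 to 1195 CPM at its low dose. The stroma markers, mostly ACTA2, summed to 14.2 to 17.6 CPM at the high dose of Polygalae Radix, against 56.99 to 60.25 CPM at its low dose, and to 28.7 to 34.3 CPM at the high dose of Aucklandiae Radix, against 61.8 to 62.9 CPM at its low dose. The part of these measures in the changes of the nucleolar genes was not tested. The dependence of counts on GC content differed between replicates 2 and 3 of Polygalae Radix. In log2 units per 10 percentage points it was 0.12 and -0.08 at the high dose and 0.18 and 0.01 at the medium dose. At the low dose it was -0.01 and -0.002. Its part in single genes was not tested apart from the fits with the GC and length trend removed.

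At the medium dose neither extract moved many of the 38 genes. Medium against low, 1 rose and 3 fell with Polygalae Radix (8.51% of all genes called), namely NOB1 higher and UTP20, DKC1 and NPM1 lower. These 4 calls all fell to 0 in the fit of only the groups compared, without medium-dose replicate 2, without low-dose replicate 2 and without low-dose replicate 3. The count was 11 without medium-dose replicate 3. The share of all genes called in these fits is not given here. With Aucklandiae Radix edgeR called 0 (4.3% of all genes called), 2 rose at an unadjusted p under 0.05, and DESeq2 called 0. For unadjusted p-values the share of all genes was not computed, here and below.

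Menthae Herba raised 21 of the 38 genes and lowered 0 at the high dose (11.6% of all genes were called higher). The median log2 fold change was 0.15, against 0.01 for all genes, and 35 of the 38 values were above 0, as were 51.68% of all genes. The genes called were spread over the roles, 6 of 9 in the large subunit, 4 of 6 late factors, 3 of 4 box H/ACA genes, and 2 each among the RNA polymerase I, processome and abundant nucleolar genes. FBL, the methyltransferase of the box C/D particles, was the 1 of 3 there, and MYC is the remaining gene.

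After MYC the largest rises with Menthae Herba were those of BOP1 and RRP12. BOP1 had 84.1, 92.1 and 86.1 CPM at the high dose, against 68.9, 65.6 and 68.3 CPM at the low dose (log2 fold change 0.37, SE 0.071, edgeR adjusted p = 6.02e-05). RRP12 had 78.9, 81.3 and 75.6 CPM at the high dose, against 64.4, 59.7 and 60.8 CPM at the low dose (log2 fold change 0.35, edgeR adjusted p = 2.11e-05). Neither gene rose with Polygalae Radix. DDX21 had 410, 393 and 382 CPM at the high dose, against 325, 327 and 328 CPM at the low dose (log2 fold change 0.28, edgeR adjusted p = 1.08e-05). FBL had 151, 155 and 162 CPM at the high dose, against 131, 129 and 130 CPM at the low dose (log2 fold change 0.26, edgeR adjusted p = 3.81e-05). NOLC1, a chaperone of box H/ACA and C/D particles, had 243, 243 and 243 CPM at the high dose, against 215, 202 and 209 CPM at the low dose (log2 fold change 0.22, edgeR adjusted p = 1.03e-06). The groups of these genes did not overlap. DDX21, FBL and NOLC1 had fallen with Polygalae Radix.

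The hepatocyte markers summed to 21736 to 24803 CPM at the high dose of Menthae Herba, against 46925 to 48854 CPM at its low dose, and their part was not tested. At the medium dose edgeR called 0 of the 38 (0.118% of all genes called), while 14 rose and 0 fell at an unadjusted p under 0.05 and DESeq2 called 0. The 0.118% is for adjusted calls, and the share of all genes at an unadjusted p under 0.05 was not computed. All 38 medium-over-low values were above 0, with a median of 0.09, while 49.93% of all genes were above 0.

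Menthae Herba and Saposhnikoviae Radix carry the same set label and had the same doses. The difference of their dose responses was called for 2 of the 38 genes (10.7% of all genes called). The value of MYC was higher with Menthae Herba by 0.27 (SE 0.067, edgeR adjusted p = 0.00442). LTV1, an export adaptor of the small subunit, had a log2 fold change of -0.05 with Menthae Herba and 0.15 with Saposhnikoviae Radix, neither of them called. The difference of -0.21 was called (edgeR adjusted p = 0.022), and this call was lost without low-dose replicate 1 of Menthae Herba (edgeR adjusted p = 0.0918), without high-dose replicate 2 (0.0595) or low-dose replicate 3 (0.0576) of Saposhnikoviae Radix and without the low-count filter (0.105).

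With Guibi-tang, medium against low, 12 rose and 0 fell (1.93% of all genes were called higher and 3.56% in either direction), the median was 0.13 against -0.00 for all genes, and all 38 values were above 0 as against 49.13% of all genes. RRP9, which binds the small nucleolar RNA of the processome, had 44.4, 43.5 and 39.4 CPM at the medium dose, against 34.6, 31.6 and 34.8 CPM at the low dose (log2 fold change 0.33, edgeR adjusted p = 0.00221). TSR1 had 152, 150 and 150 CPM at the medium dose, against 127, 131 and 137 CPM at the low dose (log2 fold change 0.20, edgeR adjusted p = 0.000287). The groups were apart in both genes. The count of 12 was 5 without medium-dose replicate 1 or without low-dose replicate 1. It was 7 without medium-dose replicate 2 or without low-dose replicate 2. Without the low-count filter it was 6, and after removal of the GC and length trend 25. For these other fits the share of all genes called is not given here.

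At the high dose of Guibi-tang WDR12 and TSR1 rose next to MYC. WDR12, a partner of PES1 and BOP1, had 125, 131 and 128 CPM at the high dose, against 99.8, 103 and 108 CPM at the low dose (log2 fold change 0.30, edgeR adjusted p = 1.92e-08). TSR1 had 149, 167 and 155 CPM at the high dose and was higher by 0.25 on the log2 scale (edgeR adjusted p = 1.59e-07). NPM1, GNL3, DKC1 and NOP56 fell. NPM1 had 1256, 1160 and 1272 CPM at the high dose, against 1385, 1444 and 1362 CPM at the low dose (log2 fold change -0.19, edgeR adjusted p = 0.000659). GNL3 had 112, 103 and 108 CPM at the high dose, against 122, 122 and 127 CPM at the low dose (log2 fold change -0.20, edgeR adjusted p = 5.53e-05). DKC1, the pseudouridine synthase of the box H/ACA particle, fell by 0.16. These 3 groups were apart, whereas those of NOP56 (488, 395 and 461 CPM at the high dose, against 499, 527 and 488 CPM at the low dose) touched, and its fall of 0.17 was lost without high-dose replicate 2 (log2 fold change -0.09, edgeR adjusted p = 0.0656) and in the fit of only the groups compared.

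The 37 genes other than MYC summed to 7476 ± 62.5, 8162 ± 224 and 7265 ± 100 CPM at the low, medium and high doses of Guibi-tang (SD, n = 3 each), so that the medium dose was the highest. The hepatocyte markers summed to 35266 to 37180 CPM at the high dose, against 46311 to 47524 CPM at the low dose, and their part was not tested. Guibi-tang and Saengmaek-san shared a set and doses. The difference of their dose responses was called for 8 of the 38 genes (19.6% of all genes called). The value of MYC was higher with Guibi-tang by 0.22 (edgeR adjusted p = 0.0133), which was lost without high-dose replicate 1 of Saengmaek-san (edgeR adjusted p = 0.0508), and WDR12 by 0.25. NPM1 (-0.35), NOP58 (-0.30), NOP56 (-0.26), NCL (-0.26), DKC1 (-0.20) and GNL3 (-0.19) were lower with Guibi-tang relative to Saengmaek-san. The call for GNL3 was lost without high-dose replicate 2 of Guibi-tang (edgeR adjusted p = 0.0501).

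The remaining extracts gave small values, most of them above 0. With Saposhnikoviae Radix all 38 values of high against low were above 0, with a median of 0.12 and a range of 0.05 to 0.20, while 49.61% of all genes were above 0. UTP4, TSR1, NOB1 and NOLC1 were called (0.383% of all genes were called higher). UTP4, a processome subunit that joins early transcription, had 105, 104 and 102 CPM at the high dose, against 95.6, 88.8 and 93.7 CPM at the low dose (log2 fold change 0.17, edgeR adjusted p = 0.0226). TSR1 had 142, 145 and 144 CPM at the high dose, against 134, 128 and 125 CPM at the low dose (log2 fold change 0.15, edgeR adjusted p = 0.0196). Both pairs of groups were apart. The count of 4 was 0 without low-dose replicate 2, 0 without low-dose replicate 3 and 3 without low-dose replicate 1. It was 1 without any 1 of the 3 high-dose libraries and 0 without the low-count filter. With DESeq2 it was 9, in the fit of only the groups compared 12 and after removal of the GC and length trend 15. The shares of all genes called in these other fits are not given here.

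At the medium dose of Saposhnikoviae Radix all 38 values were again above 0 (median 0.06). By edgeR 0 were called there (0.0118% of all genes called), 11 rose at an unadjusted p under 0.05 and DESeq2 called 0. Medium against low, edgeR also called 0 with Saengmaek-san (0% of all genes called) and 0 with Soyo-san (0.00589%). At an unadjusted p under 0.05, 8 rose with Saengmaek-san and 0 with Soyo-san, and DESeq2 called 0 in both. The percentages here are for adjusted calls, and the unadjusted counts have no share of all genes beside them.

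With Saengmaek-san 36 of 38 values were above 0 (49.12% of all genes), with a median of 0.06. By edgeR 0 were called, 11 rose and 0 fell at an unadjusted p under 0.05 (share of all genes not computed), and DESeq2 called 3. With Soyo-san 35 of 38 values were above 0 (48.63% of all genes), with a median of 0.07, and NOLC1 was called. NOLC1 had 249 and 238 CPM at the high dose, against 217 and 214 CPM at the low dose (log2 fold change 0.17, edgeR adjusted p = 0.00593). That call was lost without high-dose replicate 1 (edgeR adjusted p = 0.156), without low-dose replicate 2 (edgeR adjusted p = 0.087) and without the low-count filter (edgeR adjusted p = 0.153). In the single libraries of Okbyeongpung-san 37 of 38 values of high against low were above 0 (50.978% of all genes), with a median of 0.16. WDR43 was the highest there at 0.26 and POLR1C the lowest at -0.14. WDR43 had 221 CPM at the high dose and 184 CPM at the low dose of Okbyeongpung-san.

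**Figure D5:**
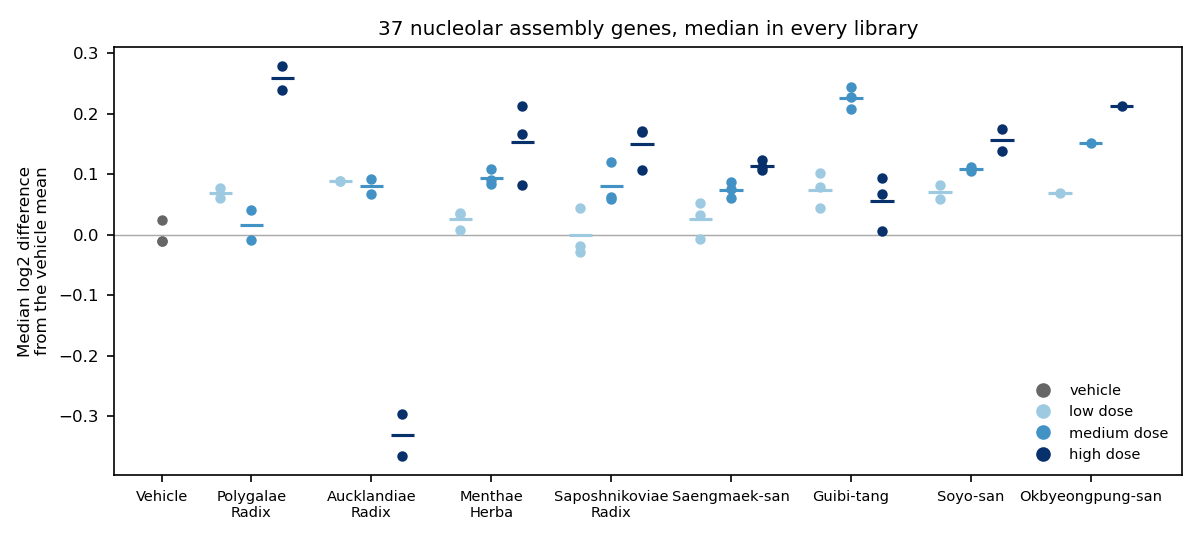
Median log2 level of the 37 genes other than MYC relative to the vehicle mean (vertical axis) in each of the 60 libraries, by extract, with vehicle in grey and darker blue for a higher dose. Points are libraries and bars are group means. The high dose of Polygalae Radix lies at 0.26 ± 0.03 and that of Aucklandiae Radix at -0.33 ± 0.05 (SD, n = 2 each), and the medium dose of Guibi-tang at 0.23 ± 0.02 (SD, n = 3) is above both its low and its high dose.

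All 7 replicated extracts shared a shift from vehicle that was already there at the low dose. The share of all genes called at the low dose against vehicle was 35.6% for Polygalae Radix, 33.1% for Aucklandiae Radix, 37.8% for Menthae Herba, 37.4% for Saposhnikoviae Radix, 38% for Saengmaek-san, 40% for Guibi-tang and 34% for Soyo-san. In all 7 extracts 7 of the 38 genes were called higher (9.55% of all genes were) and 8 lower (11.4% of all genes). The comparisons share the same 3 vehicle libraries. The 7 higher genes were POLR1B (0.15 to 0.24 over the 7 extracts), POLR1C (0.22 to 0.38), RRN3 (0.23 to 0.30), DKC1 (0.11 to 0.19), UTP15 (0.16 to 0.39), WDR12 (0.22 to 0.28) and NIP7 (0.23 to 0.35), all as log2 fold changes. The 8 lower genes were MYC (-0.47 to -0.26), RRP12 (-0.36 to -0.20), PES1 (-0.35 to -0.27), POLR1A (-0.30 to -0.23), NCL (-0.29 to -0.14), LAS1L (-0.28 to -0.20), NOP14 (-0.24 to -0.16) and NOLC1 (-0.19 to -0.10). Vehicle replicates 2 and 3 had the steepest dependence of counts on GC content of the 57 fitted libraries, 0.21 log2 units per 10 percentage points each, where the median library had -0.01 and vehicle replicate 1 had 0.08. The part of GC content, and of the set, in these values was not tested gene by gene. In the fits of only the groups compared the number called in all 7 extracts was 9, with 4 higher and 5 lower.

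At the high dose against vehicle 23 genes rose and 14 fell with Polygalae Radix (66.9% of all genes called), and 5 rose and 25 fell with Aucklandiae Radix (73.3%). With Menthae Herba 19 rose and 4 fell (48.1%), with Saposhnikoviae Radix 20 and 6 (40.1%), with Saengmaek-san 16 and 8 (40.3%), with Guibi-tang 15 and 9 (50.9%) and with Soyo-san 21 and 4 (38.5%). The last count was 16 in all without high-dose replicate 2 of Soyo-san. POLR1C, RRN3, GAR1, NIP7 and PNO1 were higher than vehicle at the high dose of all 7 extracts, and POLR1A and PES1 were lower at all 7. The share of all genes called so at all 7 high doses was not computed. POLR1C was raised by 1.26 on the log2 scale with Polygalae Radix (edgeR adjusted p = 1.71e-22) and by 0.29 to 0.40 with the other 6 extracts.

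Further genes of the pathway were read from lists chosen with earlier results known. Of all genes 31.9% rose and 32.4% fell with Polygalae Radix, 34.6% rose and 35% fell with Aucklandiae Radix, 11.6% rose and 12% fell with Menthae Herba, and 16.8% rose and 17.4% fell with the high dose of Guibi-tang. The counts of these lists stand beside those shares, and some lie near them. Of 16 other RNA polymerase I genes 11 rose and 2 fell with Polygalae Radix, while 3 rose and 10 fell with Aucklandiae Radix. Of 28 other processome genes 11 rose and 11 fell with Polygalae Radix, 7 rose and 14 fell with Aucklandiae Radix, and 9 rose and 1 fell with Menthae Herba. Of 32 other large subunit genes 18 rose and 9 fell with Polygalae Radix, 10 rose and 16 fell with Aucklandiae Radix, 12 rose with Menthae Herba, and 9 rose and 1 fell with Guibi-tang. Of 6 other late small subunit genes 3 rose with Polygalae Radix, and 3 rose and 2 fell with Aucklandiae Radix. In each of these 4 lists more genes fell with Aucklandiae Radix than with Polygalae Radix.

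Ribosomal protein genes encode the proteins that these factors assemble. Of 82 tested 66 fell and 0 rose with Aucklandiae Radix (median log2 fold change -0.39), and 73 fell and 0 rose with the high dose of Guibi-tang (median -0.29). With Polygalae Radix 8 rose and 24 fell (median -0.09), and with Menthae Herba 19 rose and 0 fell (median 0.13). Ribosomal protein genes have many processed pseudogenes, so their counts are uncertain. CACGTG was in a promoter of 4 of the 66 ribosomal protein genes that had one listed (6.06%).

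Among 10 tested partners and antagonists of MYC 8 rose with Polygalae Radix, and 7 rose and 1 fell with Aucklandiae Radix. MXD1, which competes with MYC for MAX, averaged 47.3 CPM at the high dose of Polygalae Radix and 19.9 CPM at its low dose (log2 fold change 1.26, edgeR adjusted p = 5.91e-15). It averaged 145 CPM at the high dose of Aucklandiae Radix and 18.8 CPM at its low dose (log2 fold change 2.95, edgeR adjusted p = 1.24e-28). MXD1 thus moved more than any of the 38 genes in Aucklandiae Radix. Of 20 MYC targets outside the nucleolus 6 rose and 10 fell with Polygalae Radix, where MYC itself rose, and 4 rose and 15 fell with Aucklandiae Radix. With Menthae Herba 10 rose and 3 fell, and with Guibi-tang 2 rose and 7 fell. HSPD1, a mitochondrial chaperone on that list, averaged 566 CPM at the high dose of Polygalae Radix and 1956 CPM at its low dose (log2 fold change -1.78, edgeR adjusted p = 3.71e-30).

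Among 8 genes of nucleolar stress and p53, 2 rose and 3 fell with Polygalae Radix, 6 rose and 2 fell with Aucklandiae Radix, 4 rose with Menthae Herba and 3 rose with Guibi-tang. CDKN1A, a cell cycle inhibitor induced by p53, averaged 300 CPM at the high dose of Aucklandiae Radix and 66.8 CPM at its low dose (log2 fold change 2.18, edgeR adjusted p = 7.55e-24). The value of CDKN1A with Polygalae Radix was 0.14 (edgeR adjusted p = 0.244). Another gene of the list had the largest called change with each of these extracts, Polygalae Radix included. Of 8 proliferation genes 7 fell and 1 rose with Polygalae Radix, 8 fell with Aucklandiae Radix, 8 with Guibi-tang and 5 with Menthae Herba. TOP2A, a topoisomerase of dividing cells, fell by 2.02 on the log2 scale with Polygalae Radix, and its values were -1.77 with Aucklandiae Radix and -0.99 with Guibi-tang, all called. Whether proliferation had a part in the changes of the 38 genes was not tested.

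Over the 25 group means genes among those most like MYC, by Pearson's r of log2 levels over 9400 genes with a mean of at least 10 CPM, were ZNF74 (0.94), RHOB (0.93), PRAG1 (0.93) and NCS1 (0.92). Without the high dose of Polygalae Radix their values were 0.60 to 0.71. Among the other 37 genes NOP16 was the most like MYC (0.92), then WDR74 (0.88), NOP2 (0.84) and BYSL (0.84), and HEATR1 was the least (-0.78). In the same order these values became 0.55, 0.57, 0.49, 0.30 and -0.03 without the high dose of Polygalae Radix. Of the 37 genes 13 had r above 0.5, as did 21.0% of all genes, and 5 had r below -0.5, as did 26.0% of all genes. Without the high dose of Polygalae Radix 6 had r above 0.5, as did 6.21% of all genes. BOP1 had r of -0.12 over all groups and 0.80 without the high dose of Polygalae Radix, and RRP12 -0.35 and 0.68. In each r both genes come from the same libraries at the same depth, and 1 group has a high MYC level. These values are a description.

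Dose responses were also set out by whether the promoter held CACGTG. The median log2 fold change of high over low was 0.34 for the 14 genes with the motif and 0.26 for the 18 without it in Polygalae Radix. It was -0.48 with the motif and -0.41 without it in Aucklandiae Radix, 0.17 and 0.11 in Menthae Herba, and 0.03 and 0.05 in Guibi-tang. In Polygalae Radix the genes with the motif ranged from -0.48 for UTP20 to 0.91 for BYSL, both of whose windows are printed above.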

How the data were processed

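RNA of HepG2 cells was sequenced in 60 libraries. The values are expected counts per gene, deposited by the authors as 1 table and made with STAR 2.7.3a and RSEM 1.3.3 on GRCh38 after Trim Galore 0.6.5, per the submitters' processing notes. Strand setting and annotation release: not given in the sources used here. Expected counts were rounded to whole numbers. Of all values, 9.97% were not whole before rounding. Genes were filtered with filterByExpr (minimum count 10), scaled by TMM and tested with the quasi-likelihood test of edgeR 4.0.16 in R 4.3.3, in 1 fit of 57 libraries in 22 groups with 35 residual degrees of freedom, on 16978 genes, with Benjamini-Hochberg adjustment per comparison at 0.05. Okbyeongpung-san, with 1 library per dose, was described by its values alone. CPM levels are TMM scaled. Gene positions, lengths and GC content came from GENCODE 29 and promoters from RefSeq. Replicates were checked for duplicated libraries: no 2 libraries of a group held identical values, and all pairs differed by more than counting noise (chi-square per degree of freedom 1.79 to 15.6). Depth was 17.5 M to 38.9 M counts (M, 1000000), and no intervals were computed for single counts. The edgeR fit was tested on simulated counts for 1 comparison, with few changed genes and the same spread for every gene. Comparisons in which most genes changed, and the other steps, were not tested in that way. DESeq2 1.42.0, RLE scaling, other filters, a fit of only the groups compared, replicate blocks, removal of the GC and length trend and each left-out library were tried as alternatives.

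The 38 genes, the roles and the further lists were chosen with earlier results of these data known. Named by rule were MYC, the 4 largest called changes per extract, the most abundant gene of each role, up to 4 genes with the largest opposite calls, up to 3 genes from each further list and the 5 genes most like MYC, of which 1 is not reported here. Other genes named, and those whose E-box windows are printed, were chosen after their values were seen.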

Additional observations from a re-analysis of the deposited data

Results flagged for a closer look

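The dose responses of 2 extracts with the same set label were tested against each other in 1 fit with edgeR, and the differences that passed are given here as values. Between Aucklandiae Radix and Polygalae Radix, the dose response of 33 of the 38 genes differed (60.1% of all genes), and that of MYC differed by -1.33 on the log2 scale. Between Menthae Herba and Saposhnikoviae Radix 2 of the 38 differed (10.7% of all genes), and the value of MYC was higher with Menthae Herba by 0.27. Between Guibi-tang and Saengmaek-san 8 of the 38 differed (19.6% of all genes, a share close to that of the 38), and the value of MYC was higher with Guibi-tang by 0.22.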

How the results depend on the processing

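Counts of called genes at the high dose of Polygalae Radix (32 to 33), Aucklandiae Radix (27 to 28), Menthae Herba (15 to 20) and Guibi-tang (11 to 16) stayed within 1.5 times when single libraries were left out. Smaller counts moved, and the cause was not tested. The counts under other settings stand without the share of all genes called in the same fit. For Saposhnikoviae Radix high against low (4) no filter gave 0, the GC and length trend removed 15, only the groups compared 12 and DESeq2 9, with 0 to 3 when a library was left out. For Saengmaek-san (0) no filter gave 3, the replicate block within the set 1, GC 4, only the groups compared 3 and DESeq2 3. For Soyo-san (1) no filter gave 0, a filter at a mean of 1 CPM 2, GC 5, only the groups compared 3 and DESeq2 2, with 0 to 1 when a library was left out. Against the low dose, the medium dose of Polygalae Radix (4) gave 2 with GC, 0 with only the groups compared and 0 to 11 when a library was left out, Menthae Herba (0) gave 2 with only the groups compared, and Guibi-tang (12) gave 6 with no filter, 25 with GC and 5 to 11 when a library was left out. Soyo-san high against vehicle (25) gave 16 to 26. The difference of Menthae Herba and Saposhnikoviae Radix (2) gave 4 at 1 CPM, 4 with the block within the set, 6 with GC, 7 with only the groups compared, 5 with DESeq2 and 1 to 3 when a library was left out. The 15 genes called at all 7 low doses against vehicle became 9 with only the groups compared and 11 to 16 when a library was left out.

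MYC at the high dose of Menthae Herba against vehicle lay near 0 and changed sign, to 0.0036 with RLE scaling, 0.0107 with no filter, 0.0573 with GC, 0.0027 with only the groups compared and 0.0047 with DESeq2, and ran from -0.0771 to 0.0529 when a library was left out. That of Guibi-tang became 0.0379 with GC. MYC at the medium against the low dose of Saengmaek-san ran from -0.0004 to 0.0459 when a library was left out. Of the single-gene values recomputed without 1 library, 1041 kept direction and side of the threshold, 141 lost the call and 6 changed sign. Of those recomputed under the other settings 1547 kept both, 66 lost the call, 7 gained it and 6 changed sign. Apart from those of MYC, all values in both tallies were called in the fit of 57 libraries. Only MYC could therefore gain a call, and gains of other genes show only in the counts of called genes above.

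Whether replicate numbers pair the samples was not settled. Same-numbered libraries correlated by -0.45 (Polygalae Radix high and vehicle) to 0.58 in their deviations, and all pairs exceeded 0.1 in 2 of 12 comparisons with 3 pairs. Medium against low, r was 0.31 to 0.58 for Saposhnikoviae Radix and 0.13 to 0.15 for Saengmaek-san. It was 0.05 to 0.35 for Guibi-tang and 0.04 to 0.16 for Menthae Herba. High against low, each of these 4 extracts had values on both sides of 0. With the replicate block the counts of the 38 genes moved by at most 1, the difference of Menthae Herba and Saposhnikoviae Radix to 3. With the block within the set they moved by at most 1 apart from that difference, which moved by 2 to 4, and the call for UTP4 with Aucklandiae Radix was lost (edgeR adjusted p = 0.0507).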
